A study of Sus scrofa with 6 samples.

Results

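Granulosa cells (GCs) sit on matrix and on each other through integrins, cadherins, claudins and related surface proteins, and 74 genes of this kind were found by name among the 17950 genes of the deposited table. They were taken as the genes whose pig symbol begins with *ITGA*, *ITGB*, *CDH*, *PCDH* or *SDC* and a digit, or with *CLDN*, *ICAM*, *VCAM*, *NECTIN* or *JAM*, together with *ITGAV*, *CD44*, *CD248*, *CD9*, *CD63*, *CD151*, *DDR1*, *DDR2*, *ILK*, *VCL*, *TLN1* and *PEAK1*. *PTK2* and *PXN*, which the rule also names, were not matched by symbol and are not analysed here. A symbol was matched for 10757 genes, so further family members may sit among the unnamed rows.

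Primary GCs were aspirated from ovarian follicles of pre-pubertal Landrace gilts, cultured for 24 h and infected for 72 h with lentiviral particles. The pLVX-*RBP4* group received the pLVX-IRES-ZsGreen vector carrying porcine *RBP4*, the plasma carrier of retinol, and the CTRL group received the same vector without it, so that both groups carried virus and ZsGreen. Each group had 3 libraries, for which the deposited table gives 1 FPKM value per gene and group (fragments scaled to transcript length and to the mapped fragments of the library). With 1 value per group the spread between replicates and the depth per library are unknown from the table, no test could be made, and each difference below is a description without a replicate check. Differences are given as log2(FPKM + 1) in pLVX-*RBP4* GCs minus that in CTRL GCs, which understates the change of weakly expressed genes, and ratios as pLVX-*RBP4* over CTRL FPKM. *RBP4* itself had 1.10 FPKM in CTRL GCs and 92.3 FPKM in pLVX-*RBP4* GCs, a value that may hold reads of the introduced sequence. Among granulosa markers, *CYP11A1* had 673 and 669 FPKM, *INHA* 28.6 and 27.5 FPKM and *FSHR* 9.99 and 8.47 FPKM. *CYP19A1*, *FOXL2*, *AMH*, *INHBA*, *INHBB*, *STAR* and *HSD17B1* were not matched by symbol. *GJA1* had 675 and 814 FPKM (log2 difference 0.27). Of the 8 granulosa markers averaging 1 FPKM or more, which include the adhesion gene *CDH2*, 3 were higher and 5 lower, with 50.2% of all genes higher. Values were also found for markers of other cells, the highest of them on the list of theca and stroma. *ACTA2* had 644 and 688 FPKM, *COL3A1* 525 and 611 FPKM and *DCN* 169 and 210 FPKM. On the same list *INSL3* was at 0 in CTRL GCs and at 0.292 FPKM in pLVX-*RBP4* GCs. *CYP17A1* and *COL1A1* were not matched by symbol. *PECAM1* of endothelium, *KRT8* of epithelium and *GDF9* of the oocyte also averaged 1 FPKM or more. The other matched markers of epithelium and oocyte were below 1 FPKM. *EPCAM* had 0.325 and 0.199 FPKM, *KRT18* 0.038 and 0.130 FPKM and *DDX4* 0 and 0.067 FPKM. *CDH1*, *KRT19*, *KRT7*, *ZP2*, *ZP3* and *BMP15* were not matched by symbol. *KDR* of endothelium had 3.55 and 3.03 FPKM, and the leukocyte marker *CD14* had 42.9 and 48.9 FPKM. The other 4 leukocyte markers matched had 4.59 FPKM (*CD68*) or less, among them *PTPRC* with 0.229 and 0.166 FPKM and *CSF1R* with 0.414 and 0.428 FPKM. In such bulk values fewer cells of a type cannot be told apart from less RNA per cell.

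Integrins are heterodimers of an alpha and a beta chain that bind matrix proteins outside the cell and reach actin inside it through talin, vinculin and kinases at focal adhesions. Cadherins and their catenins hold neighbouring cells together, and claudins, junctional adhesion molecules and nectins seal and position cell contacts. In the follicle, the granulosa layer is held together by N-cadherin and gap junctions and rests on a basal lamina of laminin, type IV collagen and fibronectin.

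Of the 74 genes, 46 averaged 1 FPKM or more over both groups, as did 12382 genes in all. The great majority of these 46 genes had close values in both groups, since 37 of the 46 log2 differences lay within 0.2 of 0 and 21 within 0.1, as did 8535 and 4883 of all 12382 genes. A log2 difference of 0.32 in either direction, at which the higher value is 25% above the lower on the scale of FPKM + 1, was taken as the limit for naming a difference. In all, 2 of the 46 (4.35%) were past it toward higher pLVX-*RBP4* values, the integrin chain *ITGA5* and the junctional adhesion molecule *JAM2*, against 7.11% of all genes. A further 2 of the 46 (4.35%) were past it toward lower values, *CD248* and *PEAK1*, against 5.31% of all genes. Beyond 0.58, or 1.5-fold, 1 of 46 was higher (2.17%, against 1.49% of all genes), which was *ITGA5*, and 0 of 46 were lower (against 1.28%). These shares lie near those of all genes. The 5th to 95th percentile of the log2 difference ran from -0.22 to 0.28 for the 46 genes and from -0.33 to 0.37 for all genes.

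By sign alone, 15 of the 46 genes (32.6%) were higher in pLVX-*RBP4* GCs, against 50.2% of all genes, and the median log2 difference was -0.048, against 0.0014 for all genes. After both groups were rescaled to the same total (TPM rescaling), 29 of the 46 (63.0%) were higher, against 64.9% of all genes, and the medians moved alike, to 0.022 for the 46 genes and 0.073 for all genes. After upper quartile scaling 16 of the 46 (34.8%) were higher, against 51.2% of all genes. After median scaling 19 of the 46 (41.3%) were higher, against 54.2% of all genes. The sign of a small difference thus depended on the scaling, and each count by sign below reads against 50.2% of all genes as deposited and 64.9% after TPM rescaling. The sign of 14 of the 46 genes changed between the settings tried, among them *ITGB1*, *ITGAV*, *ITGA6*, *CD44* and *VCAM1*, whereas 15 genes were higher and 17 lower under each setting.

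**Figure D1:**
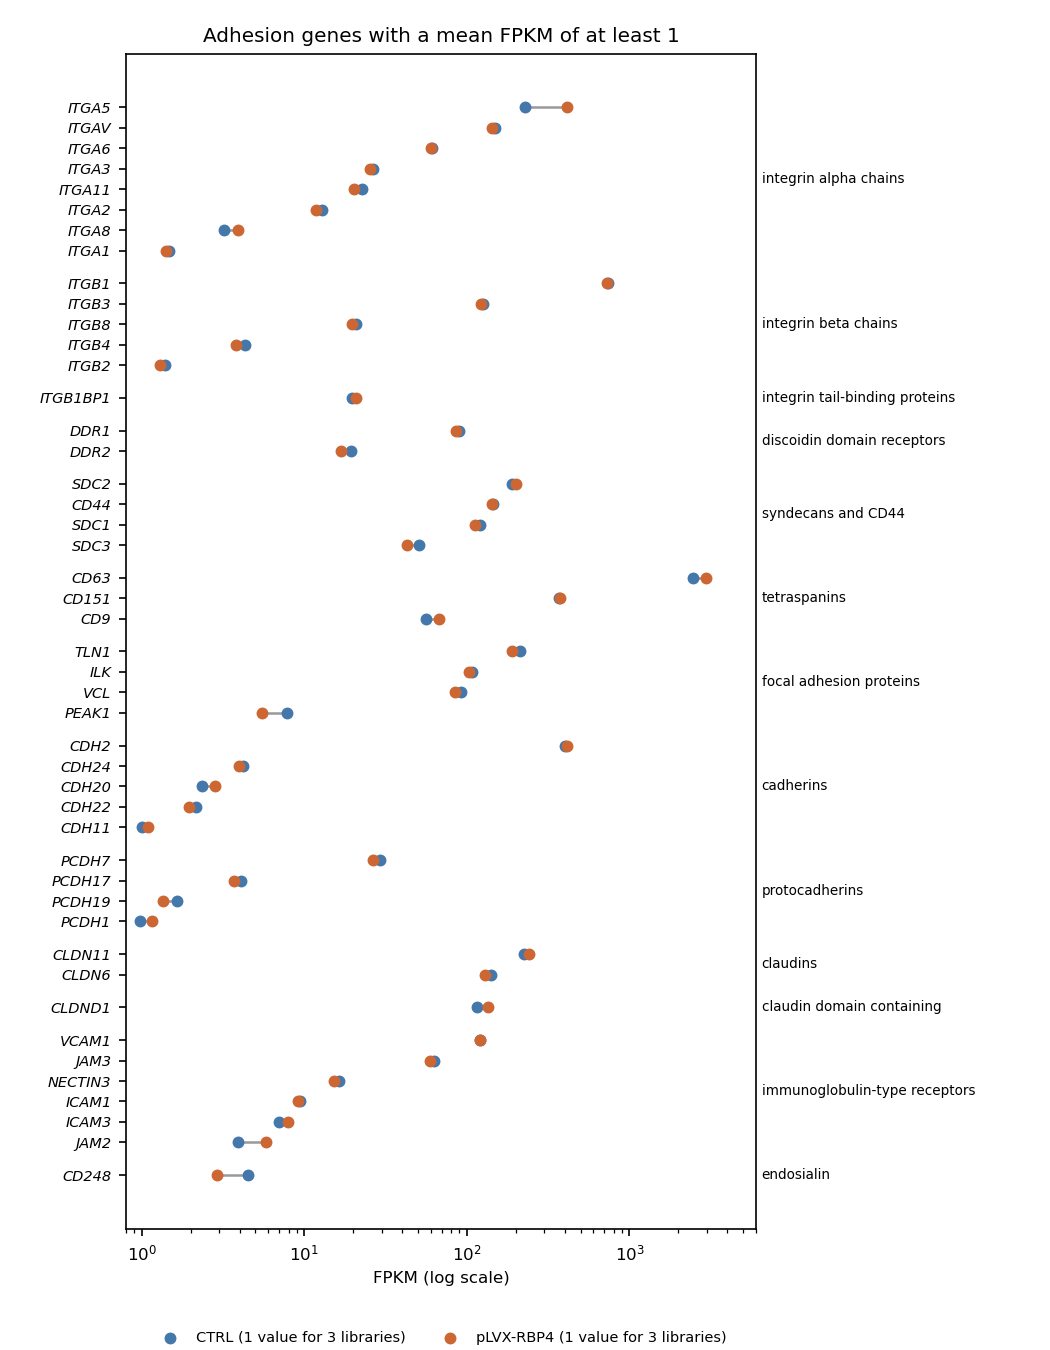
FPKM (log scale) of the 46 adhesion genes averaging at least 1 FPKM, grouped by role, with 1 point for the CTRL group and 1 for the pLVX-*RBP4* group, each a single value for 3 libraries, joined by a line. The points of most genes overlap, and the widest gaps are those of *ITGA5*, *JAM2*, *CD248* and *PEAK1*.

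Among the integrin alpha chains, which set ligand choice, *ITGA5* stood apart. *ITGA5* (ENSSSCG00000000293; Sscrofa10.2 chromosome 5, 20442127 to 20465312), the fibronectin-binding partner of *ITGB1*, had 228 FPKM in CTRL GCs and 412 FPKM in pLVX-*RBP4* GCs, a log2 difference of 0.85 and a ratio of 1.81. It ranked 77th from the top of the 12382 log2 differences, and 7th of the 1092 genes averaging at least 100 FPKM. It was the alpha chain with the highest FPKM in both groups. Of its next neighbours in the RefSeq gene order of Sscrofa11.1, *ZNF385A* did not share the difference, with 3.43 and 3.04 FPKM. *GTSF1*, with 0.145 and 0.145 FPKM, lay below the limit of 1 FPKM and could not be compared.

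The other alpha chains at 1 FPKM or more had closer values in both groups. *ITGAV*, whose dimers recognise the RGD motif of fibronectin and vitronectin, had 148 and 144 FPKM in CTRL and pLVX-*RBP4* GCs. *ITGA6* and *ITGA3*, which form laminin receptors, had 60.6 and 60.2 FPKM and 26.4 and 25.4 FPKM. The log2 differences of these 3 chains, -0.04, -0.01 and -0.05, turned positive under TPM rescaling. The collagen-binding chains *ITGA11* and *ITGA2* had 22.6 and 20.3 FPKM and 12.8 and 11.8 FPKM, log2 differences of -0.15 and -0.11. *ITGA1*, a further collagen-binding chain and a direct neighbour of *ITGA2* in the RefSeq gene order, was much weaker, with 1.47 and 1.41 FPKM. *ITGA8*, a partner of *ITGB1* that binds RGD ligands, was the only other alpha chain at 1 FPKM or more that was higher as deposited, with 3.22 and 3.88 FPKM (log2 difference 0.21).

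The FPKM of the 11 alpha chains found summed to 505 in CTRL GCs and 680 in pLVX-*RBP4* GCs. Without *ITGA5* the sums were 277 and 268, so the gain lay in this gene. *ITGA5* made up 45.1% of the alpha-chain FPKM in CTRL GCs and 60.6% in pLVX-*RBP4* GCs, while the share of *ITGAV* was 29.3% and 21.1% and that of *ITGA6* 12.0% and 8.85%. These ratios within a group do not depend on the scaling between groups.

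**Figure D2:**
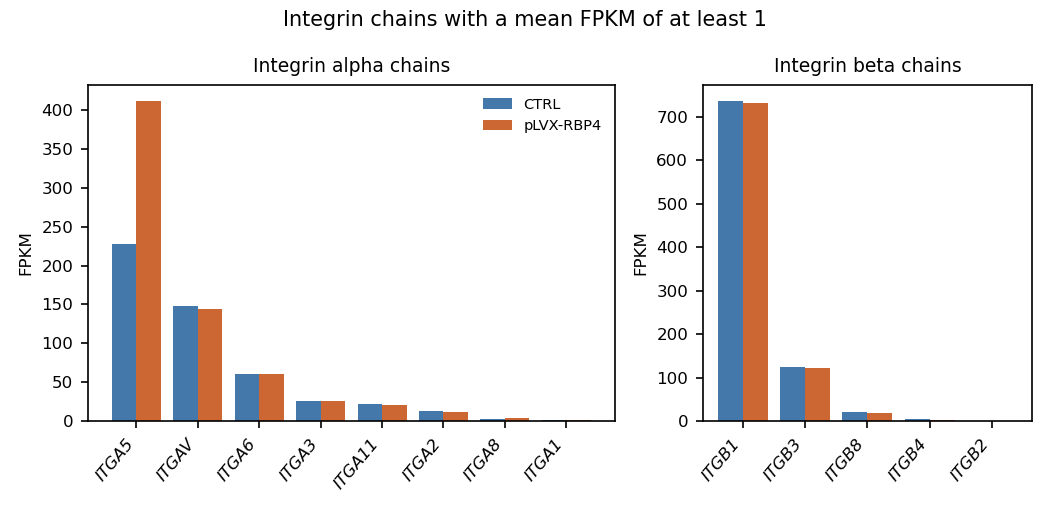
FPKM (linear axis from 0) of the 8 integrin alpha chains and 5 beta chains averaging at least 1 FPKM, with 1 bar for the CTRL group and 1 for the pLVX-*RBP4* group, each a single value for 3 libraries. The bars of *ITGA5* differ (228 and 412 FPKM), and those of its partner *ITGB1* are close (737 and 731 FPKM).

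The beta chains did not follow *ITGA5*. *ITGB1*, the shared partner of most of these alpha chains, had 737 FPKM in CTRL GCs and 731 FPKM in pLVX-*RBP4* GCs, a log2 difference of -0.013 as deposited, which turned positive (at most 0.066) after median scaling or TPM rescaling. The ratio of *ITGA5* to *ITGB1* was 0.309 in CTRL GCs and 0.564 in pLVX-*RBP4* GCs, and that of *ITGAV* to *ITGB1* was 0.201 and 0.197. The summed alpha chains amounted to 0.685 of the *ITGB1* FPKM in CTRL GCs and to 0.931 in pLVX-*RBP4* GCs. *ITGB3*, which pairs with *ITGAV* as a vitronectin receptor, had 125 and 121 FPKM, and the ratio of *ITGAV* to *ITGB3* was 1.19 and 1.18. *ITGB8*, which activates latent TGFB together with *ITGAV*, had 20.8 and 19.8 FPKM. *ITGB4*, the hemidesmosome partner of *ITGA6*, had 4.33 and 3.82 FPKM (log2 difference -0.15), and *ITGB2*, a chain of leukocytes, had 1.40 and 1.29 FPKM. All 5 beta chains at 1 FPKM or more were lower as deposited, but 1 of 5 was higher after median scaling (54.2% of all genes) and 3 of 5 after TPM rescaling (64.9%).

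*ITGB1BP1*, whose protein binds the tail of the *ITGB1* chain, had 19.6 and 20.7 FPKM. *ITGA7*, *ITGB5* and *SDC4* were not matched by symbol and are not analysed here.

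At the inner face of focal adhesions, all 4 genes of the rule that were found were lower as deposited, with a median log2 difference of -0.14, and 3 of the 4 after TPM rescaling. *PEAK1* (ENSSSCG00000001869; Sscrofa10.2 chromosome 7, 61961069 to 62180499), a pseudokinase of the cytoskeleton, had 7.84 FPKM in CTRL GCs and 5.48 FPKM in pLVX-*RBP4* GCs, a log2 difference of -0.45 and a ratio of 0.699. The tetraspanin gene *TSPAN3*, next to it in the RefSeq order, had 179 and 192 FPKM. *TLN1*, talin, which activates integrins and links them to actin, had 211 and 188 FPKM (log2 difference -0.16). *VCL*, vinculin, which reinforces that link, had 91.6 and 84.8 FPKM (-0.11), and *ILK*, a scaffold at the beta-chain tail, had 108 and 103 FPKM (-0.059). *ILK* was the gene whose sign turned.

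A list of 33 other focal adhesion proteins was looked up for context, and 23 averaged 1 FPKM or more. Of these, 5 were higher and 18 lower in pLVX-*RBP4* GCs, or 8 and 15 after TPM rescaling, with a median log2 difference of -0.15 as deposited. *TNS1*, *LIMS1* and *ACTN4* had the highest values. *TNS1*, a tensin that binds beta-chain tails and actin, had 509 and 425 FPKM (log2 difference -0.26). *LIMS1*, the partner of *ILK*, had 251 and 254 FPKM, and *ACTN4*, an actin cross-linker, had 240 and 212 FPKM. A further tensin, *TNS3*, was the only gene of the list past 0.32 in size, with 40.1 and 31.5 FPKM (-0.34). Of all genes, 50.2% were higher as deposited.

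The ligands of integrins were compared by the same table, with 19 of 26 listed genes at 1 FPKM or more, of which 8 were higher and 11 lower (12 and 7 after TPM rescaling). *FN1*, fibronectin, the ligand of the *ITGA5* and *ITGB1* dimer, had 315 FPKM in CTRL GCs and 319 FPKM in pLVX-*RBP4* GCs. *THBS1*, thrombospondin, had 3959 and 3492 FPKM, and *COL4A2*, a chain of basal lamina collagen, had 333 and 313 FPKM. The values of these 3 ligand genes lay closer together than those of *ITGA5*. The gene of this list past 0.32 was *IBSP*, a bone sialoprotein with an RGD motif, with 3.66 and 5.56 FPKM (log2 difference 0.49).

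Receptors for matrix outside the integrin family were close between the groups. *DDR1* and *DDR2*, receptor tyrosine kinases that are activated by collagen, had 89.3 and 85.3 FPKM and 19.3 and 16.8 FPKM, log2 differences of -0.065 and -0.19. Of the syndecans, heparan sulfate proteoglycans that act beside integrins, *SDC2* had 190 and 202 FPKM, *SDC1* had 121 and 112 FPKM and *SDC3* had 50.7 and 43.1 FPKM. *SDC3* had the lowest log2 difference of these 5 receptors, -0.23. *CD44*, the hyaluronan receptor, had 145 and 143 FPKM. Across the 5 listed collagen receptors at 1 FPKM or more (*ITGA1*, *ITGA2*, *ITGA11*, *DDR1* and *DDR2*), 0 of 5 were higher as deposited (50.2% of all genes) and 2 of 5 after TPM rescaling (64.9%).

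*CD248* (ENSSSCG00000029949; Sscrofa10.2 chromosome 2, 5146888 to 5149543), endosialin, a lectin-like glycoprotein of stromal cells and pericytes that binds matrix, was the lowest of the 46 log2 differences. It had 4.50 FPKM in CTRL GCs and 2.90 FPKM in pLVX-*RBP4* GCs, a log2 difference of -0.50 and a ratio of 0.645. The study reports that its RT-qPCR did not bear out the sequencing difference of *CD248*. As the gene was weakly expressed, the added 1 mattered, and the log2 ratio without it was -0.63. It ranked 234th from the bottom of the 12382 genes. *TMEM151A*, next to it in the RefSeq order, and *BRMS1*, on the other side behind *RIN1*, which was not matched by symbol, had 13.6 and 11.9 FPKM and 23.2 and 23.2 FPKM. Of the 5 theca and stroma markers at 1 FPKM or more, 4 were higher in pLVX-*RBP4* GCs, namely *ACTA2*, *COL3A1*, *DCN* and *LUM*. *LUM* had 6.82 and 9.10 FPKM (0.37), while *PDGFRA* was lower, with 12.6 and 11.2 FPKM (-0.16). The 6 that were matched summed to 1357 and 1530 FPKM, most of it from *ACTA2* and *COL3A1*. The part of stromal cells in the *CD248* values was not tested.

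The tetraspanins, 4-pass membrane proteins that gather integrins into membrane domains, were all 3 higher in pLVX-*RBP4* GCs under each scaling. *CD63*, a tetraspanin of late endosomes and secreted vesicles, was the most abundant of all 74 genes, with 2444 FPKM in CTRL GCs and 2968 FPKM in pLVX-*RBP4* GCs (log2 difference 0.28). *CD9* had 56.3 and 67.8 FPKM (0.26), and *CD151*, which binds laminin-binding integrins directly, had 367 and 372 FPKM (0.021). *CD63* and *CD9* thus stayed under 0.32 as deposited, and both passed it after TPM rescaling. Abundant genes as a whole leaned to higher values, since 91 of the 114 genes averaging at least 1000 FPKM (79.8%) were higher, with a median log2 difference of 0.16, and the part of this lean in the *CD63* difference was not tested. Of 14 other tetraspanins at 1 FPKM or more, 10 were higher, or 13 after TPM rescaling, and the median as deposited was 0.075. The most abundant of them were *TSPAN3*, given above, *TSPAN14* with 110 and 111 FPKM and *CD82* with 98.1 and 106 FPKM. *TSPAN18*, chosen after its value was seen, went the other way with 89.8 and 72.2 FPKM (-0.31).

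**Figure D3:**
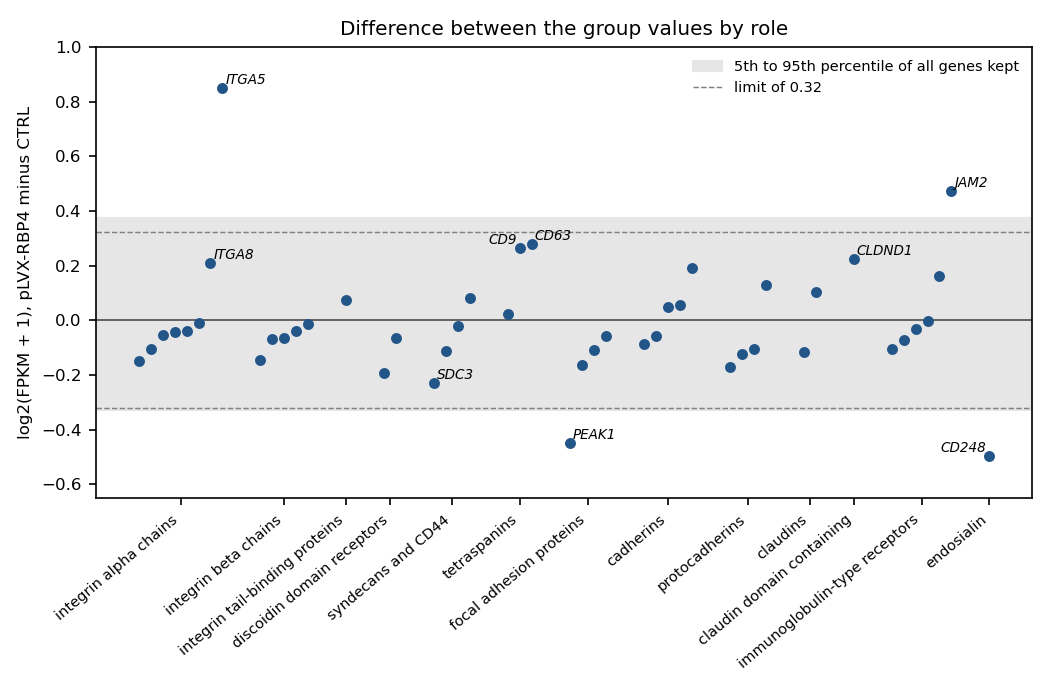
Log2(FPKM + 1) in pLVX-*RBP4* GCs minus that in CTRL GCs for the 46 adhesion genes by role, with 1 point per gene, the 5th to 95th percentile of all 12382 genes (-0.33 to 0.37) as a grey band and the limit of 0.32 in either direction as dashed lines. *ITGA5* (0.85), *JAM2* (0.47), *PEAK1* (-0.45) and *CD248* (-0.50) lie outside the band, and the tetraspanins lie above 0 while the beta chains and focal adhesion proteins lie below it as deposited.

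Nearly all cadherin FPKM came from a single gene. *CDH2*, N-cadherin, had 399 FPKM in CTRL GCs and 412 FPKM in pLVX-*RBP4* GCs (log2 difference 0.049), or 97.4% of the cadherin FPKM in both groups. The other 4 cadherins at 1 FPKM or more, of the type II class, were weak, and *CDH24* led them with 4.19 and 3.98 FPKM. *CDH20* had 2.35 and 2.82 FPKM (0.19), *CDH22* had 2.15 and 1.96 FPKM and *CDH11* had 1.01 and 1.09 FPKM. No cadherin thus reached 0.32. *PCDH7* was the main protocadherin, with 29.0 and 26.6 FPKM (-0.12) and 81.3% and 81.0% of the protocadherin FPKM. *PCDH17* had 4.06 and 3.70 FPKM, *PCDH19* had 1.64 and 1.35 FPKM and *PCDH1* had 0.969 and 1.15 FPKM.

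The catenins that tie cadherins to actin were also close. *CTNNB1*, beta-catenin, had 209 and 227 FPKM (log2 difference 0.12), *CTNNA1*, alpha-catenin, had 190 and 179 FPKM, and *JUP*, plakoglobin, had 139 and 126 FPKM. Of the 9 catenins and cadherin partners at 1 FPKM or more, 3 were higher and 6 lower under each scaling, and 0 of 9 reached 0.32 in size.

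Of 11 claudins, only 2 averaged 1 FPKM or more, and both were abundant. *CLDN11*, the claudin of Sertoli cell junctions, had 226 FPKM in CTRL GCs and 243 FPKM in pLVX-*RBP4* GCs (log2 difference 0.10). *CLDN6*, a claudin of embryonic epithelia, had 140 and 129 FPKM (-0.12). Their directions were opposite under each scaling, and the ratio of *CLDN11* to *CLDN6* was 1.61 in CTRL GCs and 1.87 in pLVX-*RBP4* GCs. *CLDN9*, the direct neighbour of *CLDN6* in the RefSeq gene order, was listed at 0 in CTRL GCs and at 0.198 FPKM in pLVX-*RBP4* GCs. *CLDND1*, which shares only the claudin domain, had 115 and 135 FPKM (0.22). Among other tight junction genes, *F11R*, the first junctional adhesion molecule, had 88.2 and 86.8 FPKM, the scaffold *TJP1* had 43.5 and 38.4 FPKM and *MARVELD1* had 37.7 and 40.4 FPKM. Of 6 such genes at 1 FPKM or more, 1 was higher as deposited, or 2 after median scaling or TPM rescaling.

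Among receptors with immunoglobulin domains, *JAM2* differed most. *JAM2* (ENSSSCG00000023028), a junctional adhesion molecule known from endothelium, had 3.90 FPKM in CTRL GCs and 5.80 FPKM in pLVX-*RBP4* GCs, a log2 difference of 0.47 and a ratio of 1.49. The gene beside it in the RefSeq order of Sscrofa11.1, the mitochondrial ribosomal protein gene *MRPL39*, had 9.02 and 13.1 FPKM (0.49). The values do not say from which strand reads came, and whether reads were shared between the neighbours was not tested. Of the endothelial markers, *PECAM1* and *KDR* were lower as deposited (log2 differences of -0.028 and -0.17), *ESAM* was listed at 0 in CTRL GCs, and *CDH5*, *VWF*, *TEK* and *CLDN5* were not matched by symbol. The 3 matched markers summed to 19.9 and 19.1 FPKM, and the part of endothelial cells in the *JAM2* values was not tested. *JAM3*, the most abundant of the family by rule, had 62.7 and 59.7 FPKM, so that the ratio of *JAM3* to *JAM2* was 16.1 in CTRL GCs and 10.3 in pLVX-*RBP4* GCs.

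*VCAM1*, the ligand of leukocyte integrins, was the most abundant receptor of this class, with 121 and 120 FPKM. *NECTIN3*, which pairs with other nectins across cell contacts, had 16.4 and 15.2 FPKM. *ICAM1* and *ICAM3*, ligands of *ITGB2* integrins that lie close together in the RefSeq gene order with 3 genes between them, had 9.39 and 9.15 FPKM and 6.95 and 7.89 FPKM (log2 differences of -0.033 and 0.16). None of these 4 genes reached 0.32.

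The remaining 28 of the 74 genes had a mean FPKM below 1, and their values lay between 0 and 0.802 FPKM. Of these, 14 were above 0 in both groups, 8 only in pLVX-*RBP4* GCs (0.0184 to 0.198 FPKM), 4 only in CTRL GCs (0.0285 to 0.495 FPKM) and 2, *CLDN7* and *NECTIN4*, were listed at 0 in both. The same split was not counted over all genes, so no lean of the adhesion genes can be read from it. In all, 9 of the 28 were above 0.3 FPKM in a group. *ITGA9* had 0.802 and 0.491 FPKM, *ITGA4* had 0.677 and 0.694 FPKM, *ITGA10* had 0.654 and 0.624 FPKM and *ITGB7* had 0.645 and 0.478 FPKM. The leukocyte chains *ITGA4* and *ITGB7* were thus weak in both groups. *CDH3*, P-cadherin, had 0.481 and 0.577 FPKM, *CDH4* had 0.340 and 0.382 FPKM, *CLDN4* had 0.396 and 0.434 FPKM and *JAML* had 0.185 and 0.364 FPKM. *CLDN1* had 0.495 FPKM in CTRL GCs and was listed at 0 in pLVX-*RBP4* GCs. At such levels an exact 0 may be a failed estimate, and no fold is given here.

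**Figure D4:**
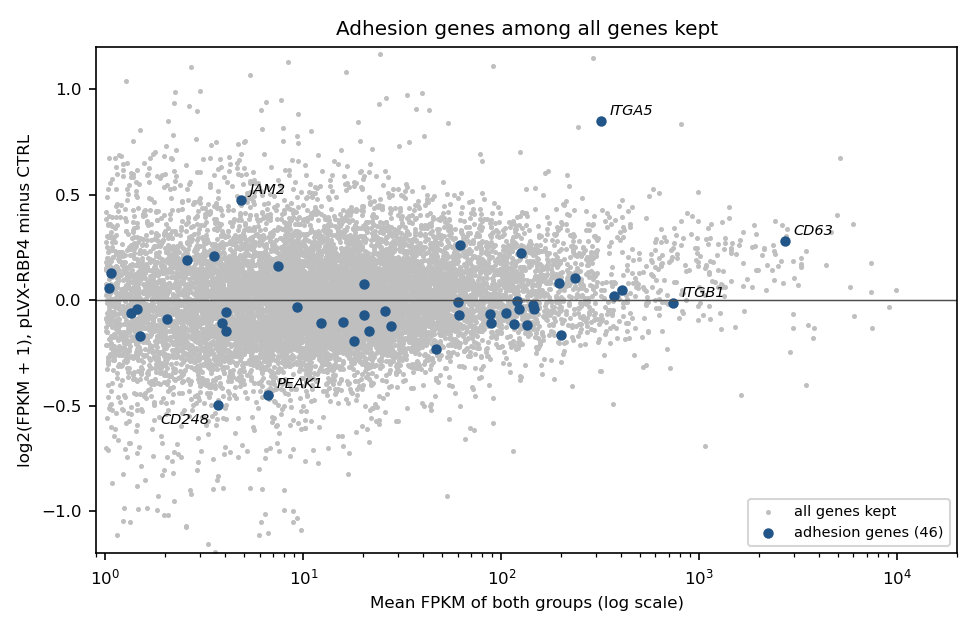
Log2(FPKM + 1) in pLVX-*RBP4* GCs minus that in CTRL GCs (vertical axis, cut at 1.2 in both directions) against the mean FPKM of both groups (log axis) for the 12382 genes kept, in grey, and the 46 adhesion genes, in blue, with 95 genes outside the axes. *ITGA5* (0.85) lies above nearly all genes of its level, while most other adhesion genes lie near 0 or below it.

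The sign of all genes varied with their level, and the adhesion genes were therefore also counted by level. From 100 to 1000 FPKM, 6 of 15 adhesion genes were higher in pLVX-*RBP4* GCs, namely *ITGA5*, *CDH2*, *CD151*, *CLDN11*, *SDC2* and *CLDND1*, against 642 of all 978 genes (65.6%). Their median log2 difference was -0.013, against 0.077 for all genes of that level. From 10 to 100 FPKM, 2 of 14 adhesion genes were higher, *CD9* and *ITGB1BP1*, against 51.0% of all genes. From 1 to 10 FPKM, 6 of 16 were higher, against 46.1%. These counts hold as deposited only. After TPM rescaling *ITGB1*, *ITGAV*, *ITGB3*, *CD44*, *VCAM1* and *ILK* turned positive from 100 to 1000 FPKM. From 10 to 100 FPKM *DDR1*, *JAM3*, *ITGA3*, *ITGA6* and *ITGB8* did so, and from 1 to 10 FPKM *CDH24*, *ICAM1* and *ITGA1*. The shares of all genes by level were not recounted after rescaling. Members of a family share ligands and partners and are not replicates, so these counts describe the sequenced libraries only.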

How the data were processed

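RNA of porcine GCs was sequenced in 6 libraries, 3 per group. According to the methods of the study, paired-end reads were aligned to Sscrofa10.2 with TopHat2, expression was calculated as FPKM, and the groups were compared with Cuffdiff of Cufflinks; versions and the annotation release are not given in the sources used here. The authors deposited 1 FPKM value per gene and group, scaled to transcript length and mapped fragments, so the spread per library is unknown. The read statistics of the study list more mapped reads for each pLVX-*RBP4* library than for any CTRL library. Both value columns were used and 0 left out. No test could be made.

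From these values log2(FPKM + 1) differences were computed for genes averaging 1 FPKM or more, with limits of 0.32 and 0.58 in size (25% and 1.5-fold), and the same counts were made over all genes. Symbols came from a table of Ensembl names and the study's gene tables, which also gave the coordinates of 3 genes, and gene order from RefSeq (Sscrofa11.1). Genes named were the members averaging 1 FPKM or more, those above 0.3 FPKM in a group, and, of related lists, those past 0.32 or among the 3 highest. Members and lists were chosen with earlier results of these data known. Alternatives were pseudocounts of 0.1 and 0.01, no limit or a limit of 5 on the mean FPKM, 3 scalings, and the names without *CLDND* and *ITGB1BP*. The log2 ratio without a pseudocount was added after seeing the data. The counting step was checked on simulated data. Python 3.11.15, numpy 2.4.6, pandas 2.3.3 and matplotlib 3.10.9 were used.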

Additional observations from a re-analysis of the deposited data

How the results depend on the processing

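With 1 value per group, no replicate could be left out, and differences between neighbouring values cannot be set against replicate error. No paired analysis was possible because the deposited columns hold no single libraries. TPM rescaling added 0.080 to each log2 ratio, in all genes alike. The median log2 difference of the 46 genes turned from -0.048 to 0.022, and 29 genes in place of 15 were higher. By at least 0.32, 4 of 46 in place of 2 were higher (*CD63* and *CD9* were added). The share of all genes higher by at least 0.32 rose too, from 7.11% to 12.2%. Without a limit on low values, 32 of 74 genes were higher. With a mean FPKM of at least 5, 1 gene was higher by at least 0.32 and 1 lower, because *JAM2* and *CD248* were then left out. With pseudocounts of 0.1 and 0.01, 1 of 46 genes was at least 1.5-fold lower (2.15% and 2.29% of all genes). It was *CD248*, with log2 differences of -0.62 and -0.63. The other counts stayed within 1.5 times. Of 276 values of single genes under the alternatives, 8 moved by at least 0.1, in *CD248*, *PCDH1* and *PCDH19*, and 0 of the 4 genes past 0.32 changed sign.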
